A study of Homo sapiens with 6 samples.

Results

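The subunits of RNA polymerase II were followed through a short treatment of MOLM-13 cells with C646. The members were the genes POLR2A, POLR2B, POLR2C, POLR2D, POLR2E, POLR2F, POLR2G, POLR2H, POLR2I and POLR2K, listed by name, with earlier results of these data known. All 10 had rows in the 6 tables, out of 25420 genes listed there, and reads were summed over the rows of a gene. Of the 10, 6 encode proteins found in RNA polymerase II alone (POLR2A, POLR2B, POLR2C, POLR2D, POLR2G and POLR2I) and 4 encode proteins that RNA polymerases I and III also contain (POLR2E, POLR2F, POLR2H and POLR2K).

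RNA polymerase II transcribes all protein-coding genes of the nucleus. Its largest subunits, POLR2A and POLR2B, form the active centre and the cleft that holds the DNA, POLR2C nucleates the assembly of the enzyme, and POLR2D and POLR2G form a stalk beside the exit channel of the RNA. The small shared subunits hold the large ones together in all the nuclear polymerases, and POLR2I takes part in transcript cleavage when the enzyme has stalled.

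MOLM-13 is an established human acute myeloid leukaemia line with a KMT2A fusion, and C646 is a small-molecule inhibitor of the acetyltransferases CBP and p300. Cells received 10 µM C646 or the solvent DMSO for 2 h, and 4-thiouridine (4sU, 100 µM) was present in both groups during the last 60 min. In SLAM-seq, alkylation of incorporated 4sU makes newly made RNA readable as T>C conversions, so a read that SLAM-Dunk counted as converted (a T>C read) stands for RNA made during labelling and all reads together reflect the whole RNA pool. Sequencing errors also give T>C reads, and no library without 4sU was analysed here, so that background is unknown. There were 3 libraries per group. Each was a 3′ end library in which a transcript gives reads near its poly(A) tail, and no label says whether the libraries came from separate cultures, so p-values measure the spread between these libraries, which may be technical. The contrast covers 1 dose and 1 time.

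The libraries held 7252597 to 10225448 reads in annotated 3′ UTRs, with 635616 to 833410 T>C reads in DMSO and 477824 to 686139 in C646. The T>C share of these reads was 8.79% ± 0.0637 (SD, n = 3) in DMSO and 6.48% ± 0.203 in C646. Of 14 myeloid markers, 13 had at least 10 reads in every library, and their summed level was 4458 to 4879 CPM (reads per 1000000 reads of the library, scaled by TMM, the trimmed mean of M values) in DMSO and 4587 to 4811 in C646. By the tests described below, 7 of 10 tested myeloid markers were lower in T>C reads, against 33.0% of all tested genes. In all reads 1 of 13 was lower, against 1.88%. All 5 erythroid markers had at most 3 reads per library and the summed T cell, B cell and epithelial markers stayed at or below 6.11 CPM. The 5 fibroblast markers summed to 0.808 to 2.32 CPM in DMSO and to 5.82 to 7.35 in C646, with COL1A2, COL3A1 and DCN at 3 reads or fewer in each library, and their part in the results was not tested. Fewer cells and less RNA per cell cannot be told apart in bulk libraries.

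The tables count reads in 3′ UTR intervals on GRCh38. The entry of POLR2B (Entrez 5431) was chr4:57030989-57031162 on the plus strand, that of POLR2C (5432) chr16:57471120-57472009 on the plus strand, and that of POLR2D (5433) chr2:127846266-127848106 on the minus strand. POLR2G (5436) was counted at chr11:62766508-62766715 (plus), POLR2H (5437) at chr3:184368295-184368595 (plus) and POLR2K (5440) at chr8:100153317-100154002 (plus). POLR2I (5438) had a short entry, 46 bases at chr19:36113709-36113754 (minus), with 11 T positions, so few conversions could be seen in it. POLR2E (5434) and POLR2F (5435) had 2 entries each, of which chr19:1086579-1088720 (minus) and chr22:37967716-37969315 (plus) held all but 2 and 3 of their reads. All of these lie in 3′ UTRs of the same genes in GENCODE v44. The UTRs of POLR2B, POLR2C, POLR2E and POLR2I overlap antisense genes (IGFBP7, DOK4, ARHGAP45 and OVOL3), and in GENCODE the entry of POLR2D holds the pseudogene RPS26P19 on its own strand. Multimapped reads made up at most 0.174% of the reads of any member.

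POLR2A (5430), the catalytic subunit, could not be measured. Its entry, chr17:7514180-7514618 on the plus strand, overlaps an exon of the gene in GENCODE, where it is not marked as a UTR. It held 1, 1 and 0 reads in the DMSO libraries and 2, 1 and 4 in the C646 libraries, and 1 T>C read in all. It failed the filter on low counts, so all tests below cover 9 of the 10 members. Too few reads fell in this entry to measure a change of POLR2A, and whether reads of the gene fall outside the entry was not tested.

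Promoter windows from RefSeq (GRCh38.p14, 250 bases before to 50 after each annotated start) were found for 7 of the members, all but POLR2G, POLR2I and POLR2K. Searched on both strands, the ETS motif CCGGAAG occurred in POLR2C, POLR2D and POLR2F, against 12.2% of the 27305 genes with a window, a gene counting when any of its windows held the motif. The NRF1 motif GCATGCG occurred in POLR2F and POLR2H, against 4.74% of all these genes. These stretches of 30 bases are shown because POLR2C, POLR2D and POLR2F had lower T>C reads after C646 and POLR2H did not pass the test. POLR2E, also lower, had no ETS match, and the NRF1 motif was in both POLR2F and POLR2H. The capitals mark the motif, which is on the opposite strand (CTTCCGG) in POLR2C and POLR2D.
POLR2C, chr16:57462643-57462672, plus strand: tcgctgactgaCTTCCGGtgttggcggtgg
POLR2D, chr2:127858123-127858152, minus strand: ccgcgcttctgCTTCCGGcggcgctggtgg
POLR2F, chr22:37953647-37953676, plus strand: tgtcctgcctcCCGGAAGtgatttcctctg
POLR2F, chr22:37953615-37953644, plus strand: caccagtcagcGCATGCGcactttccccgc
POLR2H, chr3:184363341-184363370, plus strand: cttgtttgtgcGCATGCGccactctcgtct
The SP1 motif GGGCGG was found in POLR2A, POLR2B, POLR2D, POLR2E and POLR2H, against 48.3% of all these genes. None of the members' windows that were searched held AAGATGG (YY1, 7.11% of genes), CCAAT (39.7%), TATAAA (14.0%), CACGTG (8.77%) or TGACGT (9.64%). These matches are a description of the letters and are no evidence that a factor binds there.

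The first comparison asked which subunit mRNAs were made less after C646. T>C reads of 6 of the 9 tested members fell: those of POLR2C, POLR2D, POLR2G and POLR2I among the subunits of RNA polymerase II alone, and of POLR2E and POLR2F among the shared ones. No member rose (0 of 9). A gene was called when edgeR's quasi-likelihood test gave a Benjamini-Hochberg adjusted p of at most 0.01 over all 7722 genes tested, with a log2 fold change of at least 1 in size. By the same rule 33.0% of all tested genes were lower and 2.97% higher, so a fall was common in these libraries. Without the cutoff on the fold, 6 members were lower and 0 higher, against 38.0% and 3.83% of all tested genes. The median log2 fold change was -1.13 over the 9 members and -0.83 over all tested genes. Libraries were scaled here by their total of all reads, normalised by TMM, and levels are given in CPM on that scale.

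POLR2F, a small subunit common to all the nuclear polymerases, had the lowest fold change of the members. Its T>C level was 7.80, 7.07 and 10.8 CPM in the DMSO libraries and 2.78, 2.45 and 1.39 CPM in the C646 libraries, from 51 to 80 and 14 to 21 T>C reads. All C646 libraries lay far below all DMSO libraries. It fell 3.92-fold (log2 fold change -1.97, SE 0.34, edgeR adjusted p = 2.25e-05).

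POLR2D and POLR2G, the pair that makes up the stalk, fell by similar amounts. POLR2D stood at 14.6, 13.7 and 17.6 CPM in DMSO and at 7.67, 6.49 and 5.16 CPM in C646. POLR2G stood at 5.90, 9.43 and 7.27 CPM in DMSO and at 2.38, 3.55 and 3.08 CPM in C646. The groups did not overlap for either gene. POLR2D fell 2.39-fold (log2 fold change -1.26, SE 0.24, edgeR adjusted p = 7.43e-05). POLR2G fell 2.48-fold (-1.31, SE 0.33, edgeR adjusted p = 0.00122), and was at -1.12 (edgeR adjusted p = 0.0172) without DMSO replicate 2.

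POLR2C, on which the enzyme is built up, had 11.0, 10.5 and 9.43 CPM in DMSO and 4.63, 3.55 and 6.75 CPM in C646. The DMSO libraries were close together and every C646 library lay below them. It fell 2.05-fold (log2 fold change -1.04, SE 0.28, edgeR adjusted p = 0.00242), just past the cutoff on the fold change. Leaving out DMSO replicate 1 or 2 or C646 replicate 1 or 2 ended that call (-1.02 to -0.84), as did an offset for the GC content of the UTR (-0.87, edgeR adjusted p = 0.00927). POLR2E, a shared subunit at the jaw that grips incoming DNA, had 13.3, 22.6 and 13.5 CPM in DMSO and 6.08, 7.35 and 8.93 CPM in C646. The second DMSO library was high, and the groups did not overlap. POLR2E fell 2.18-fold (-1.13, SE 0.25, edgeR adjusted p = 0.000384). The log2 fold change was -0.84 without DMSO replicate 2, -0.99 without C646 replicate 1 and -0.58 (edgeR adjusted p = 0.0414) with the GC offset, none of which passed both cutoffs.

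POLR2I, the cleavage subunit, rested on the fewest T>C reads. Its counts were 19, 46 and 32 in DMSO and 11, 4 and 22 in C646, or 2.00, 6.38 and 4.31 CPM against 1.45, 0.490 and 2.18 CPM. The third C646 library lay above the first DMSO library, so the groups overlapped. It was lower by a log2 fold change of -1.57 (SE 0.51, edgeR adjusted p = 0.00997), just inside the threshold, and DESeq2's Wald test did not call it (adjusted p = 0.0134). Nor was it called without DMSO replicate 2 or 3, without C646 replicate 1 or 2, from the single UTR entry with the most reads of each gene (-1.56, edgeR adjusted p = 0.0104), or with the GC offset (-1.21, edgeR adjusted p = 0.0407).

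The other 3 tested members were not called. POLR2K, a zinc-binding shared subunit, had 23.3, 24.0 and 23.2 CPM in DMSO and 13.0, 15.0 and 18.2 CPM in C646. Its groups did not overlap, but the log2 fold change was -0.61 (SE 0.20, edgeR adjusted p = 0.0101), short of the cutoff on the fold and just outside that on p. POLR2H, another shared subunit, had 8.96, 10.8 and 11.6 CPM in DMSO and 8.60, 10.9 and 10.9 CPM in C646. The groups lay on top of each other, with a log2 fold change of -0.036 (SE 0.24, edgeR adjusted p = 0.909). POLR2B, the second largest subunit, had 5.69, 4.02 and 7.14 CPM in DMSO and 4.76, 5.88 and 9.03 CPM in C646. Here too the groups overlapped (0.23, SE 0.31, edgeR adjusted p = 0.536).

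**Figure D1:**
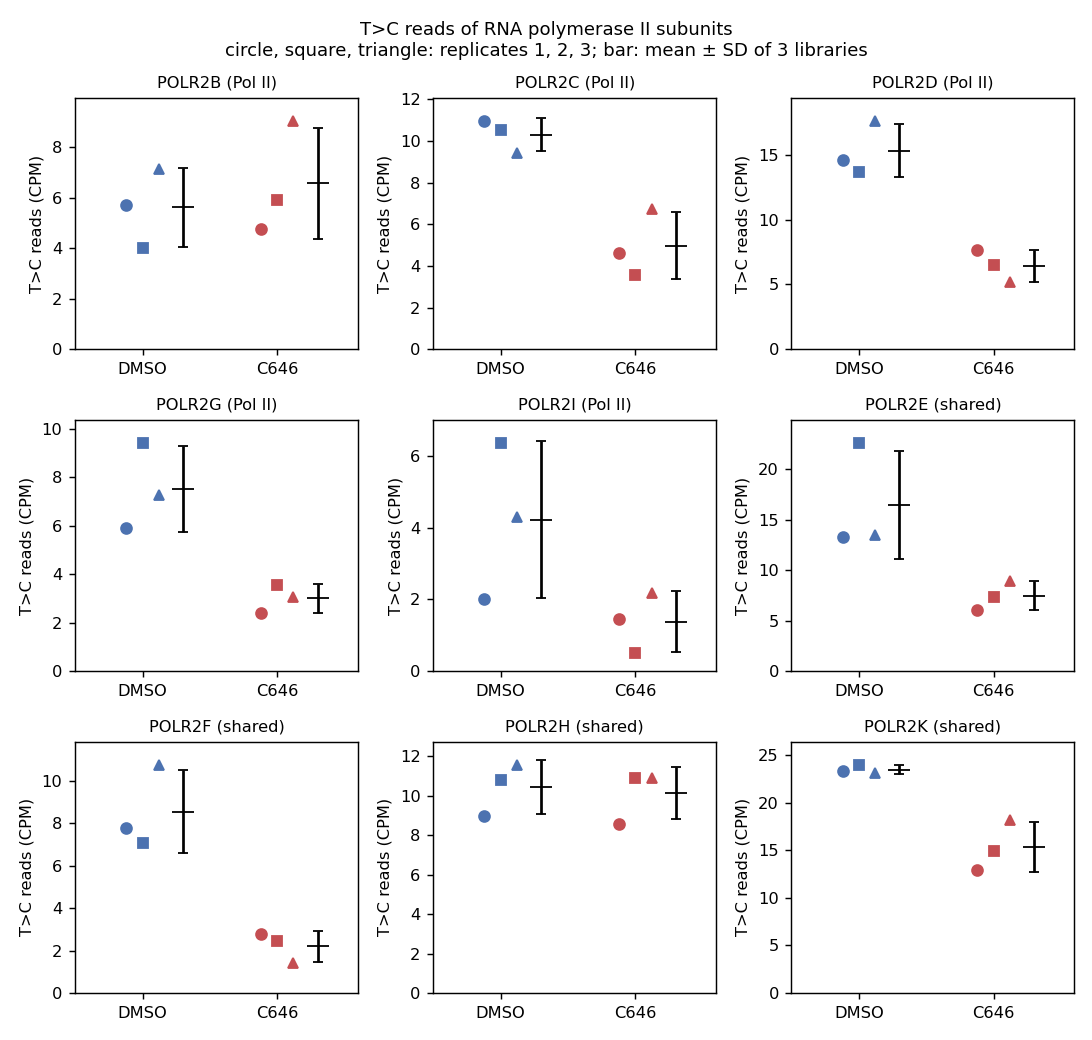
T>C reads in CPM (of the TMM-scaled total, vertical axis from 0) of the 9 tested subunits in the 3 DMSO and 3 C646 libraries, with the symbol giving the replicate and the bar the mean ± SD. The groups do not overlap for POLR2C, POLR2D, POLR2G, POLR2E, POLR2F and POLR2K, and overlap for POLR2B, POLR2H and POLR2I.

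In all, the C646 libraries lay below the DMSO libraries without overlap for 6 of the 9 members, and this held for 55.8% of all tested genes (6.46% lay above without overlap). Put in order from POLR2F through POLR2I, POLR2G, POLR2D, POLR2E, POLR2C, POLR2K and POLR2H to POLR2B, no neighbours in fold change differed by more than 1.86 of their combined SE, the gap between POLR2K and POLR2H. The ends of the order were further apart than that: POLR2F at -1.97 (SE 0.34) and POLR2B at 0.23 (SE 0.31).

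The calls depended on how libraries were made comparable. When the T>C reads themselves were normalised by TMM, the median of all tested genes moved from -0.83 to -0.00071, and the calls over all genes went from 2548 lower and 229 higher to 613 lower and 699 higher. On that scale no member was lower and POLR2B was higher (log2 fold change 1.06, SE 0.30, edgeR adjusted p = 0.00719). The 6 genes that had been called lower stayed below 0, with POLR2F lowest at -1.13 (SE 0.35, edgeR adjusted p = 0.0133), POLR2I at -0.75, POLR2G at -0.48, POLR2D at -0.42, POLR2E at -0.30 and POLR2C at -0.21. POLR2H (0.79) and POLR2K (0.22), which were not called, changed sign. With the totals of all filtered reads as library sizes, the members called lower were 3 (POLR2D, POLR2F and POLR2G), against 24.6% of all tested genes. The falls above are therefore falls relative to all reads of a library, and relative to the typical gene's T>C reads the 6 genes did not pass the test.

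**Figure D2:**
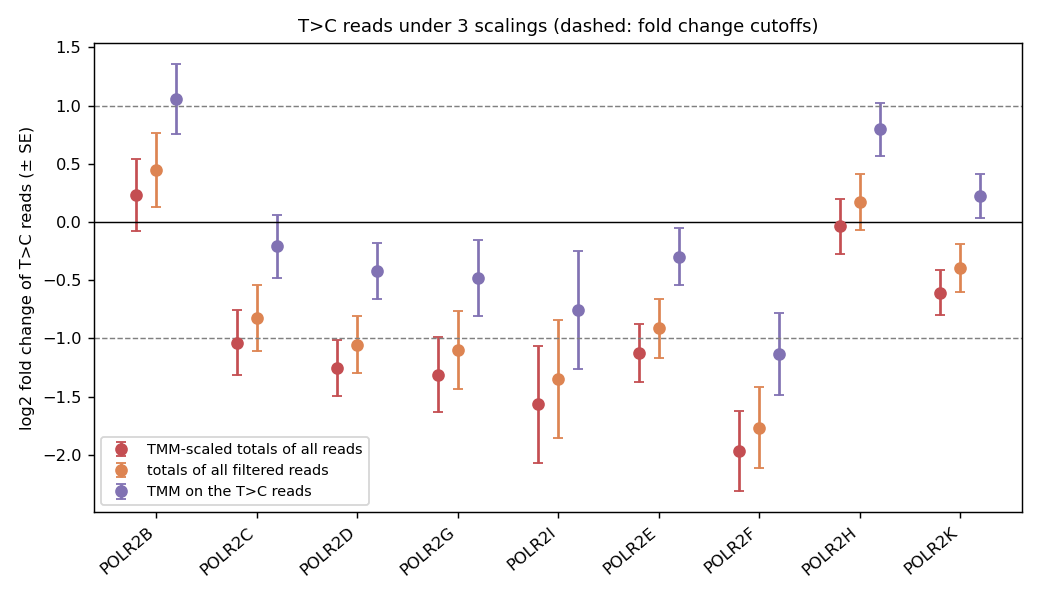
Log2 fold change of T>C reads (vertical axis, C646 against DMSO, bars ± SE) of the 9 subunits under 3 library scalings, with dashed lines at the cutoffs of -1 and 1. All subunits move up together from the TMM-scaled totals of all reads to TMM on the T>C reads, where POLR2F is at -1.13 and POLR2B at 1.06.

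The second comparison asked whether the RNA pool of the subunits changed over the same 2 h. Among 9 members tested, 0 were lower and 1, POLR2B, was higher. Over the 10851 genes tested in all reads, 1.88% were lower and 5.89% higher by the same cutoffs, and the median log2 fold change was -0.0030 (-0.21 over the members). Without the cutoff on the fold, 1 member was lower (POLR2D) and 1 higher, against 6.28% and 9.81%. At an unadjusted p under 0.05, 4 of the 9 members passed (POLR2B, POLR2D, POLR2G and POLR2I), a share close to that of all genes (4624 of 10851), and DESeq2's Wald test also called 0 lower. C646 lay below DMSO without overlap for 5 members, against 23.1% of all tested genes, and above for 1, against 24.5%.

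POLR2B was counted at 43.3, 20.2 and 40.4 CPM in DMSO and at 71.8, 88.7 and 151 CPM in C646. Every C646 library was above every DMSO library, with the second DMSO library lowest and the third C646 library highest. It rose 2.99-fold (log2 fold change 1.58, SE 0.28, edgeR adjusted p = 0.000955), and by 1.21 to 1.80 on the log2 scale when any single library was left out. Its UTR had 24.7% G and C, less than all but 0.60% of the tested genes, and the log2 fold change was 1.02 (SE 0.23, edgeR adjusted p = 0.00489) with an offset for GC content in each library, still past both cutoffs. The annotated antisense gene IGFBP7 overlaps this UTR, and its part in the count was not tested.

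POLR2D had 81.4, 84.8 and 87.8 CPM in DMSO and 63.0, 57.4 and 46.8 CPM in C646. The groups were well apart, with a log2 fold change of -0.61 (SE 0.15, edgeR adjusted p = 0.00661) that passed the p threshold and not the fold cutoff. POLR2I had 88.5, 141 and 101 CPM in DMSO and 67.3, 72.4 and 74.7 CPM in C646 (-0.62, SE 0.17, edgeR adjusted p = 0.0118). Its groups did not overlap either. POLR2G went from 168 ± 17.7 CPM to 130 ± 12.9 CPM (-0.37, edgeR adjusted p = 0.0499). The log2 fold changes of the remaining 5 ran from -0.26 for POLR2F to 0.031 for POLR2H. POLR2K had 207 ± 4.17 CPM in DMSO and 208 ± 3.55 CPM in C646, a log2 fold change of 0.0048 (SE 0.12), and POLR2H had 110 ± 5.91 and 112 ± 1.91 CPM.

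**Figure D3:**
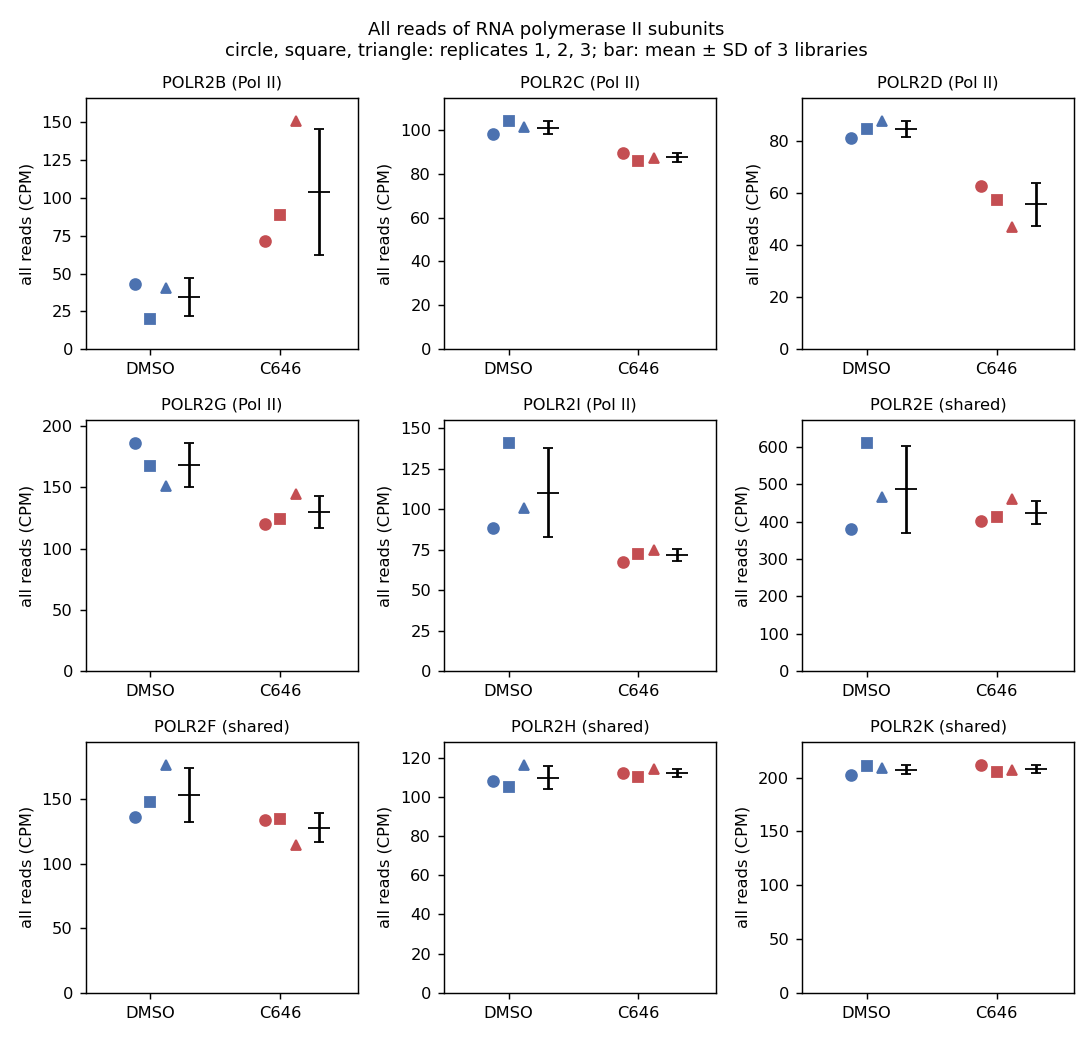
All reads in CPM (of the TMM-scaled total, vertical axis from 0) of the 9 tested subunits in the 3 DMSO and 3 C646 libraries, with the symbol giving the replicate and the bar the mean ± SD. POLR2B is higher in every C646 library, POLR2C, POLR2D, POLR2F, POLR2G and POLR2I are lower in every C646 library, and POLR2E, POLR2H and POLR2K overlap.

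The third comparison set T>C reads against the other reads of the same gene in the same library, which needs no scaling between libraries. The T>C share of the summed reads of all members was 6.98%, 6.82% and 7.23% in the DMSO libraries and 4.04%, 4.32% and 4.68% in the C646 libraries. It was lower in every C646 library than in every DMSO library. In a model of T>C odds with a term for the library, 2 of the 9 members, POLR2B and POLR2F, were lower by both cutoffs, against 38.3% of the 7722 genes tested (0.79% were higher). The adjusted p alone passed for 6 members (POLR2B, POLR2C, POLR2E, POLR2F, POLR2G and POLR2K), against 44.8% of all genes. C646 lay below DMSO without overlap for 7 members, against 64.5%. The median log2 change of the odds was -0.93 over the members and -1.0 over all genes.

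POLR2B showed the largest drop of the share in percentage points. Its T>C share was 13.1%, 19.9% and 17.7% in DMSO and 6.63%, 6.63% and 5.98% in C646. The C646 libraries were close together and all below the DMSO libraries, and the T>C odds fell 2.88-fold (log2 change -1.52, SE 0.29, edgeR adjusted p = 0.000119). Its T>C reads had not passed the test, while its reads as a whole rose. POLR2F went from 5.54% ± 0.677 (SD, n = 3) to 1.70% ± 0.443, and its odds fell 3.41-fold (-1.77, SE 0.27, edgeR adjusted p = 1.19e-05).

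Among the rest, POLR2E went from 3.35% ± 0.421 to 1.75% ± 0.214 (log2 change of the odds -0.95, edgeR adjusted p = 7.93e-05). POLR2G went from 4.54% ± 1.26 to 2.32% ± 0.468 (-0.96, edgeR adjusted p = 0.00486), and POLR2C from 10.2% ± 0.940 to 5.69% ± 1.86 (-0.91, edgeR adjusted p = 0.00615). All 3 were short of the fold cutoff, but each passed with some library left out. Without C646 replicate 3, POLR2C (-1.22) and POLR2E (-1.05) passed, which made 4 members called, against 36.05% of all tested genes. POLR2E (-1.06) also passed without DMSO replicate 3, and POLR2G without DMSO replicate 1 (-1.22) or C646 replicate 2 (-1.13). POLR2K went from 11.3% ± 0.200 to 7.39% ± 1.32 (-0.68, edgeR adjusted p = 0.00361). POLR2D went from 18.1% ± 1.96 to 11.5% ± 0.605 (-0.76, edgeR adjusted p = 0.0140) and POLR2I from 3.69% ± 1.24 to 1.92% ± 1.14 (-0.93, edgeR adjusted p = 0.0479). POLR2H stood apart from these values, with 9.52% ± 1.07 in DMSO and 9.05% ± 1.21 in C646 (-0.073, SE 0.23, edgeR adjusted p = 0.790), which put it above 90.6% of all tested genes.

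The rate of conversion per T position covered, which takes the T content of each UTR into account, gave an order of the subunits. In DMSO it was highest for POLR2D at 1.52 ± 0.0715 conversions per 100 T (SD, n = 3), followed by POLR2B at 1.23 ± 0.349, POLR2K at 0.890 ± 0.112, POLR2H at 0.687 ± 0.0987 and POLR2C at 0.667 ± 0.0808. The whole libraries had 0.650 ± 0.0154. POLR2F (0.371 ± 0.0601), POLR2I (0.272 ± 0.0942), POLR2G (0.271 ± 0.0737) and POLR2E (0.211 ± 0.0277) lay below that rate. Neighbours overlapped between libraries except at 2 places, POLR2K with POLR2H and POLR2C with POLR2F. In C646 the rate was 0.916 ± 0.0960 for POLR2D, 0.395 ± 0.0861 for POLR2B and 0.564 ± 0.0060 for POLR2H, against 0.423 ± 0.0078 for the whole libraries. For POLR2H the rate in every C646 library (0.558 to 0.569) lay just below that in every DMSO library (0.573 to 0.752). POLR2F had the lowest rate in C646, 0.0806 ± 0.0333, with POLR2E next at 0.0989 ± 0.0090, and their libraries overlapped.

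**Figure D4:**
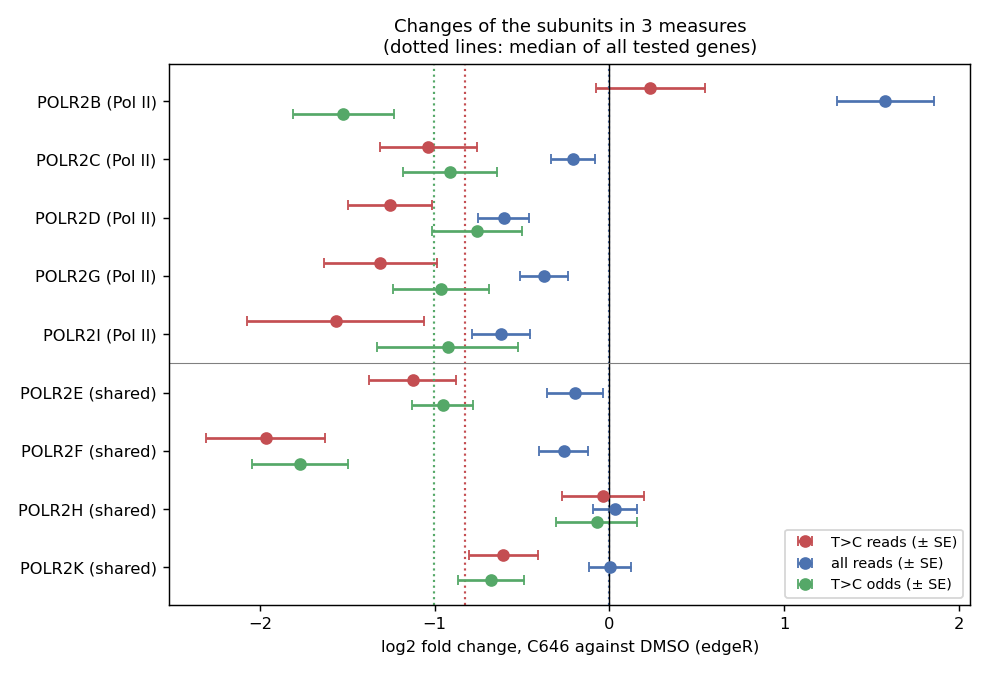
Log2 fold change (horizontal axis, C646 against DMSO, edgeR, bars ± SE) of T>C reads, all reads and T>C odds for the 9 tested subunits, with dotted lines at the median of all tested genes (-0.83, -0.0030 and -1.0). POLR2F is left of the median in all 3 measures, POLR2H is near 0 in all 3, and POLR2B is at 1.58 in all reads and -1.52 in the odds.

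The last comparison asked whether the subunits of RNA polymerase II alone and the shared subunits changed differently. T>C reads fell for 4 of 5 tested subunits of the first set (median log2 fold change -1.26) and 2 of 4 of the second (median -0.87), against 33.0% of all tested genes, and POLR2B and POLR2H, the least changed of each set, both lay near 0. The mean log2 T>C count (with 0.5 added) of the first set minus that of the second was -2.07, -1.96 and -1.93 in the DMSO libraries and -1.83, -1.95 and -1.70 in the C646 libraries. The C646 mean was 0.158 above the DMSO mean, with an SD of 0.0746 in DMSO and 0.124 in C646. That mean includes POLR2A, which has almost no reads. Without POLR2A the difference was -0.0835, and from the summed reads of each set it was -0.200, so the sign depended on the summary. The T>C share of the summed reads went from 8.64% ± 0.827 to 4.98% ± 0.264 for the first set and from 6.18% ± 0.231 to 4.02% ± 0.439 for the second.

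The subunits outside the member list widened the range. POLR2L, a small shared subunit, had 15.0, 13.6 and 10.6 CPM of T>C reads in DMSO and 3.04, 2.94 and 1.39 CPM in C646. With no overlap, it fell 5.41-fold (log2 fold change -2.44, SE 0.31, edgeR adjusted p = 1.61e-07), further than any of the members. In all reads POLR2L was at -0.98 (edgeR adjusted p = 0.00111), just short of the fold cutoff. It passed that cutoff without DMSO replicate 3 (-1.11), C646 replicate 1 (-1.12) or C646 replicate 2 (-1.03). Its T>C odds were at -1.49 (edgeR adjusted p = 1.13e-05). POLR2J, a partner of POLR2C, had a log2 fold change of 0.075 (edgeR adjusted p = 0.862) in T>C reads and of 0.82 in all reads (edgeR adjusted p = 0.00404). POLR2M, also called GRINL1A, an associated protein, rose in T>C reads (1.00, SE 0.30, edgeR adjusted p = 0.00554) and in all reads (1.32, edgeR adjusted p = 0.000732). The T>C share of POLR2M was lower in every C646 library than in every DMSO library, with T>C odds at -0.39 (edgeR adjusted p = 0.268). Its call in T>C reads, just past the fold cutoff, was not followed under the alternatives. Its UTR had 32.2% G and C.

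The other genes around the enzyme, from lists of its sister polymerases and partners, are given by their T>C reads, in which 33.0% of all tested genes were lower. Of the subunits of RNA polymerase I alone, 4 of 5 tested were lower (median log2 fold change -2.60), among them POLR1G at -4.10 (SE 0.25) and POLR1B, its second largest subunit, at -2.66 (SE 0.29). Of 2 tested subunits that polymerases I and III share without polymerase II, 1 was lower, POLR1C at -3.03 (SE 0.21). Of the subunits of RNA polymerase III, 6 of 9 were lower (median -1.42), among them POLR3D at -1.95 (SE 0.39). None was higher in any of these groups, and the medians compare with -1.13 for the members and -0.83 for all tested genes.

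Among 12 tested genes for the assembly and nuclear import of the polymerases, 2 were lower and 1 was higher (median -0.86). These were PDRG1 (-1.60) and RUVBL2 (-1.22), both parts of an assembly complex, and GPN1, a GTPase for the import of RNA polymerase II, which rose by 1.64 on the log2 scale (SE 0.33) from 2.21, 2.36 and 4.17 CPM to 5.95, 11.0 and 10.1 CPM. Of 12 general transcription factor genes 2 were lower (median -0.57), with GTF2E2, a subunit of TFIIE, at -2.12. Of 14 kinase and phosphatase genes that act on the tail of POLR2A 6 were lower (median -1.11), among them the phosphatase CTDSP1 (-1.83) and CCNT1, the cyclin of P-TEFb (-1.11). Of 22 pausing and elongation genes 7 were lower, close to the 33.0% of all tested genes (median -0.60), among them the elongation factor ELL (-2.94) and NELFCD, a subunit of the pausing factor NELF (-1.72). Of 9 genes tied to ubiquitination and turnover of the enzyme 4 were lower (median -0.88), among them BARD1 (-2.56) and the ubiquitin ligase WWP2 (-1.93). No gene of the last 4 groups was higher. Every gene outside the member list that is named as lower or higher in T>C reads had an edgeR adjusted p of at most 0.00554.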

How the data were processed

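SLAM-seq libraries of MOLM-13 cells (3 DMSO, 3 C646) were analysed from the deposited tables of 3′ UTR intervals. The authors aligned the reads to GRCh38 and counted them with SLAM-Dunk v0.4.1 at its default settings, and submitters' processing notes also list CASAVA 1.9. The deposited counts are raw reads, T>C reads and multimapped reads per interval. Deposited coverage signal on T positions and conversion counts gave the conversion rate. The deposited CPM values, which the authors scaled to all filtered reads (13378985 to 18225338 per library), were used for those totals only. The deposited conversion fraction was not printed. The study's methods name a minimum of 2 conversions per read for its own tests. In the deposited tables, conversions within the UTR divided by T>C reads came to 1.68 for POLR2E in DMSO, a ratio that leaves out conversions beyond the interval, so whether the deposited T>C counts follow that minimum was not settled. A table column with the T content of each interval was 0 throughout in the third C646 library and was read from the others.

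Counts were summed per Entrez gene (58136 intervals, 25420 genes, 25310 with a symbol). edgeR 4.0.16 (R 4.3.3) was fitted over all genes kept by filterByExpr with the quasi-likelihood test and the group as the only term. T>C reads used the TMM-scaled total of all reads as library size. T>C odds were tested as the T>C by treatment term of a model with a library factor. Calls needed a Benjamini-Hochberg adjusted p of at most 0.01 and a log2 fold change of at least 1 in size. Summed values over sets of members have no test. Named genes outside the members were those called with the largest fall or rise of each list, up to 2 each, provided that a group's mean T>C count was 50 or more. A gene that this rule named is not reported here. The fits were tested on simulated data. The members and lists were chosen with earlier results of these data known. Alternatives were other scalings, DESeq2 1.42.0, no filter, the single interval with the most reads, reads without multimapped ones, a replicate block, each library left out, and, chosen after seeing the data, an offset for GC content (a lowess curve per library) and the sets without POLR2A.

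Replicate libraries differed by more than sampling noise (chi-square per degree of freedom 7.87 to 27.7). Deviations of same-numbered libraries had correlations of 0.030 to 0.065 in T>C reads and -0.0014 to 0.23 in all reads. Between differently numbered libraries they were -0.050 to 0.016 and -0.22 to 0.15. As the correlations were small or uneven, the numbers were not taken as pairs. Protein sequences were not used here.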

Additional observations from a re-analysis of the deposited data

How the results depend on the processing

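The count of members called lower in T>C reads, with the share of all tested genes in brackets, was 6 in the report (33.0%). It was 0 (7.94%) when the T>C reads were scaled by their own TMM factors and 3 (24.6%) by totals of all filtered reads. From the single UTR entry with the most reads it was 5 (32.6%). With the GC offset, an alternative chosen after seeing the data, it was 3 (33.6%), namely POLR2D, POLR2F and POLR2G. With a library left out it was 2 to 6 (24.9% to 31.8%). It was 2 (25.4%), POLR2D and POLR2F, without DMSO replicate 2 and 3 (29.8%) without C646 replicate 1. POLR2D and POLR2F passed in every leave-out. Members called higher in T>C reads were 1 (9.05%) on the TMM scale of the T>C reads, and 0 (2.52% to 3.15%) with any library left out. Members called lower in T>C odds were 2 to 4 with a library left out, against 26.38% to 36.05% of all tested genes. There were 4 without C646 replicate 3, against 36.05%. In all reads the counts of 0 lower and 1 higher held under every alternative run, against 0.829% to 2.89% and 4.01% to 9.3% of all tested genes. The difference between the subunits of RNA polymerase II alone and the shared ones, 0.158, was -0.200 from summed reads, 0.554 with POLR2J and POLR2L (POLR2A still included), -0.0835 without POLR2A and 0.0950 to 0.219 with a library left out. The fall of the summed T>C share, -2.66 percentage points, was -4.15 as a median over members and -2.83 to -2.51 with a library left out.

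Some signs of genes that were not called in the report turned. In T>C reads, TMM on them gave 0.79 for POLR2H and 0.22 for POLR2K, totals of filtered reads gave 0.17 for POLR2H, and the GC offset gave -0.31 for POLR2B and 0.084 for POLR2H. With a library left out POLR2B ranged from -0.077 to 0.44, POLR2H from -0.14 to 0.074 and POLR2J from -0.53 to 0.42. In all reads POLR2E was at 0.015 with totals of filtered reads and 0.13 with the GC offset, POLR2F at 0.0093 and POLR2K at -0.24 with the GC offset, and POLR2K at -0.0024 both with DESeq2 size factors and with its Wald test. With a library left out POLR2H ranged from -0.0026 to 0.078 and POLR2K from -0.0099 to 0.017 in all reads, and POLR2H from -0.18 to 0.044 in T>C odds. Of the other values of single genes under an alternative, 348 kept their side of the threshold, 25 lost it and 13 gained it. The causes were not tested.

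The replicate block, a term for the replicate number, kept 6 members lower and 0 higher in T>C reads, against 33.5% and 2.93% of all tested genes. It kept 2 lower in T>C odds, against 35.8%, and turned POLR2J to -0.083 in T>C reads. The correlations given were too small and uneven to settle whether the numbers pair the libraries. POLR2A had 9 reads in all libraries at its listed interval, and whether its reads lie elsewhere was not tested. POLR2I rested on few T>C reads, as few as 4 in a library.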
